A study of Mus musculus with 6 samples.

Results

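Fc receptors bind the constant part of antibodies, and 4 receptor genes for immunoglobulin G (Fcgr1, Fcgr2b, Fcgr3 and Fcgr4) with 2 signalling adaptor genes (Fcer1g and Tyrobp) were read by gene symbol from a table of 15442 genes. All 6 were in the table. They were compared between liver cells of mice with autoimmune hepatitis (AIH, immune-mediated injury of the liver) and of control mice, beside C1qb, a complement gene expressed by macrophages, in the same libraries. Every library came from Foxp3-GFP reporter mice, in which green fluorescence marks regulatory T cells (Treg cells). RNA of eGFP-positive cells sorted from liver was amplified by SMART-Seq2, a method for small inputs, and there were 3 libraries for AIH and 3 for control. The sources used here do not give the way the disease was induced, the age or sex of the mice, any agent given to controls, or how many cells or animals made up a library. The protocol speaks of single cells, and each library was deposited and treated as 1 sample. Separate animals are not stated either, and p-values measure only the spread among these samples, which may be technical.

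The libraries held 17780509 to 24572388 expected counts (reads assigned to genes, shared where a read fits several). T cell markers were present in all of them, with 13 of 13 listed markers in the table detected in every library and a summed level of 4441 to 6313 CPM in control and 8976 to 10406 CPM in AIH (CPM, counts scaled to a common depth and corrected for library composition). Foxp3, the gene behind the sort, was at 0.267 to 4.13 CPM in the libraries labelled AIH and at 14.1 to 38.3 CPM in the controls. A level this low in cells sorted by the Foxp3 reporter is at odds with the label, and each direction given for AIH rests on the labels alone. Ikzf2, also on the T cell list, was at 811 ± 341 CPM in AIH and 579 ± 111 CPM in control (SD, n = 3 per group). Ctla4 was at 472 ± 223 and 350 ± 104 CPM, and Il2ra at 183 ± 76.9 and 188 ± 40.6 CPM. The groups overlapped for each. Cd8a had the smallest p of the T cell markers in edgeR (adjusted p 0.317). It was at 119, 46.8 and 132 CPM in AIH 1 to 3, above the 9.99, 15.3 and 26.3 CPM of Control 1 to 3. Cd4 was at 49.3, 93.3 and 28.3 CPM in AIH 1 to 3 and at 109, 82.0 and 80.7 CPM in Control 1 to 3, with overlapping groups. Of the 13 T cell markers tested, 4 were lower and 9 higher in AIH on average, against 51.9% of all genes lower. The 24 macrophage markers summed to 655 to 3226 CPM in AIH and 4257 to 19620 CPM in control. Of these markers 16 were lower in every AIH library than in every control, against 8.87% of all genes tested.

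Receptors for immunoglobulin G differ in sign. Fcgr1, Fcgr3 and Fcgr4 encode activating receptors, whose ligand-binding chains carry no signalling motif of their own and depend on the FcR gamma chain encoded by Fcer1g. That chain holds an ITAM, a tyrosine motif that is phosphorylated and then binds the kinase Syk. Tyrobp encodes DAP12, a related ITAM adaptor that serves TREM, SIRP-beta and natural killer cell receptors. Fcgr2b encodes the inhibitory receptor, which carries an ITIM and recruits the phosphatase SHIP1. In liver, Kupffer cells (the resident macrophages) carry activating and inhibitory receptors, B cells and sinusoidal endothelial cells carry Fcgr2b, and T cells are not a usual source of either kind.

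All 6 genes were lower in AIH on average, and none passed the test. Their log2 fold changes ran from −1.44 for Fcgr3 to −2.99 for Fcgr4, with a median of −2.12 beside −0.04 over all 11140 genes tested. Of all genes tested 51.9% had a log2 fold change below 0. With p-values from the quasi-likelihood test of edgeR, adjusted over all genes by Benjamini-Hochberg, 0 of the 6 were under 0.05. That test called 0.0898% of all genes in either direction and 0.00898% as lower in AIH. At an unadjusted p under 0.05, 3 of the 6 were lower in AIH, namely Tyrobp, Fcgr4 and Fcer1g, against 3.85% of all genes, and 0 were higher, against 4.42%. The Wald test of DESeq2 put 2 of the 6 under an adjusted p of 0.05, Fcgr4 at 0.0139 and Tyrobp at 0.00804, where it called 2.95% of genes and 1.46% as lower. Limma-voom called 0 of the 6, and 0.189% of genes with 0.0359% as lower. In Fcgr2b, Fcgr4 and Tyrobp, 3 of the 6, every AIH library lay below every control, against 8.87% of all genes. None of the 6 had every AIH library above every control, against 8.46%. In either direction 17.3% of all genes had groups that did not overlap. Without AIH 1 and Control 3, the libraries with the lowest and highest C1qb, all 6 remained below 0 with a median of −0.79. In bulk libraries, fewer cells of a type and less RNA per cell cannot be told apart.

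**Figure D1:**
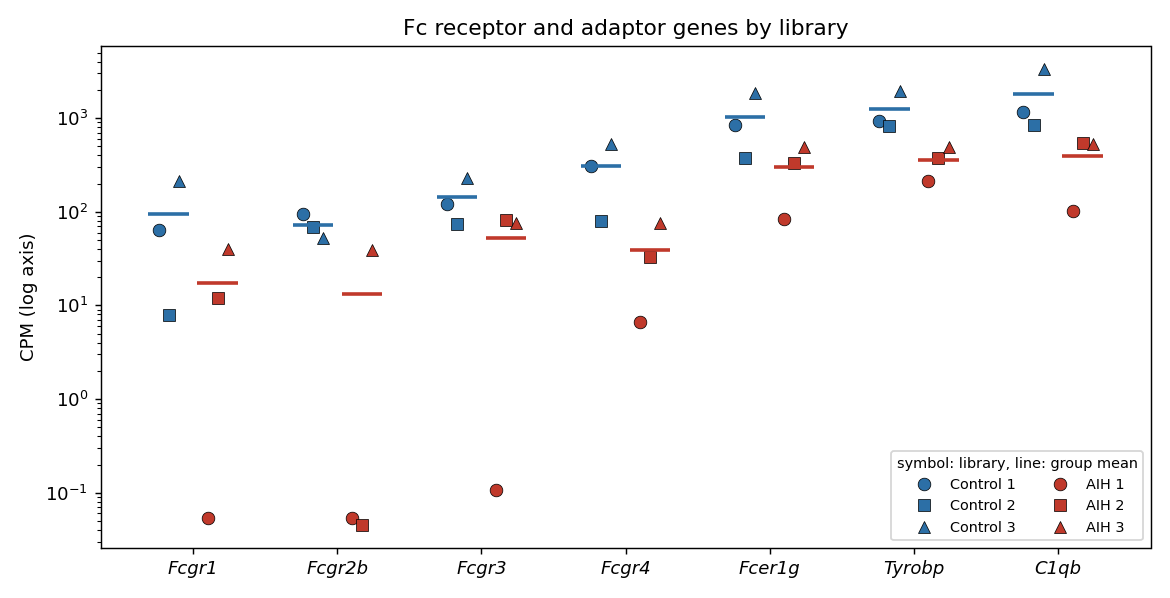
Level of the 6 Fc receptor and adaptor genes and of C1qb in each library, in CPM on a log axis; symbols are libraries, short lines are group means, blue is control and red is AIH. AIH 1 was lowest for every gene except Fcgr2b, which was lowest in AIH 2, with about 1 count in each of AIH 1 and AIH 2. Control 3 was highest for every gene except Fcgr2b, which was highest in Control 1.

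The adaptors were the most abundant and the steadiest of the 6. Tyrobp (Entrez ID 22177) was at 211, 372 and 496 CPM in the AIH libraries 1 to 3 in turn, and at 939, 832 and 1948 CPM in the control libraries 1 to 3, the order used throughout. The groups did not overlap, and the highest library exceeded the lowest 9.24-fold. Its means of 359 ± 143 CPM in AIH and 1240 ± 616 CPM in control (SD, n = 3 per group) corresponded to a log2 fold change of −1.79 (SE 0.42), adjusted p 0.319 in edgeR. Fcer1g (14127) was at 83.5, 332 and 491 CPM in the AIH libraries and at 836, 379 and 1848 CPM in the controls. Here the groups overlapped, because AIH 3 lay above Control 2. The means were 302 ± 205 and 1021 ± 752 CPM. The log2 fold change was −1.76 (SE 0.68), adjusted p 0.535 in edgeR, and −0.56 (SE 0.43) without AIH 1 and Control 3. Tyrobp exceeded Fcer1g per length (TPM, abundance scaled for transcript length and depth) in every library, by 1.22 to 1.37 times in AIH 2, AIH 3, Control 1 and Control 3, and by 3.07 times in AIH 1 and 2.67 times in Control 2.

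Fcgr4 was the activating receptor whose groups did not overlap. Fcgr4 (246256), a mouse receptor of intermediate affinity on monocytes, macrophages and neutrophils, was at 6.61, 32.9 and 76.6 CPM in the AIH libraries, and at 307, 80.2 and 534 CPM in the controls. Every AIH library lay below every control, but AIH 3 and Control 2 were close. The means of 38.7 ± 35.3 and 307 ± 227 CPM gave a log2 fold change of −2.99 (SE 0.88) and an adjusted p of 0.421 in edgeR, and −1.81 (SE 0.69) without AIH 1 and Control 3. Per length Fcgr4 was 3.51 to 6.91% of Fcer1g in the AIH libraries and 9.36 to 16.1% in the controls, so every AIH share lay below every control share. An exact two-sided permutation test over 3 against 3 libraries cannot go below p = 0.1, and this share was looked at after the values were seen.

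Fcgr1 and Fcgr3 did not separate the groups. Fcgr1 (14129), the high-affinity receptor, was at 0.0533, 12.1 and 39.9 CPM in the AIH libraries, and at 64.1, 7.85 and 212 CPM in the controls. Control 2 lay below both AIH 2 and AIH 3, and AIH 1 held 1 read. Its log2 fold change was −2.45 (SE 1.51), and −0.46 (SE 1.06) without AIH 1 and Control 3. Fcgr3 (14131), the low-affinity activating receptor that natural killer cells also carry, was at 0.107, 82.5 and 74.9 CPM in the AIH libraries and at 122, 74.7 and 231 CPM in the controls. AIH 2, AIH 3 and Control 2 were nearly level, while AIH 1 held 2 reads of Fcgr3. Its log2 fold change was −1.44 (SE 1.27), −0.86 without AIH 1 and −0.32 (SE 0.42) without AIH 1 and Control 3. In edgeR the adjusted p was 0.738 for Fcgr1 and 0.841 for Fcgr3.

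Fcgr2b, the inhibitory receptor, had another order of control libraries than the other 5 genes. Fcgr2b (14130) had expected counts of 1, 1.01 and 809 in the AIH libraries 1 to 3, and of 2367, 1341 and 1378 in the control libraries 1 to 3. Nearly all of its AIH signal was in AIH 3, whose 39.4 CPM lay below the 95.4, 69.2 and 52.7 CPM of the controls. Control 3, highest for the other 5 genes, was the lowest control for Fcgr2b. The means of 13.2 ± 22.7 and 72.4 ± 21.5 CPM gave a log2 fold change of −2.46 (SE 1.73) and an adjusted p of 0.778 in edgeR. Without AIH 3 the log2 fold change was −10.38 and the adjusted p 0.0282 in edgeR, and Fcgr2b was then the 1 gene called (0.00844% of genes). That call follows from leaving out the AIH library that held nearly all of the signal, and it adds no support.

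AIH 2 differed from the other libraries in its balance of Fcgr2b and Fcgr3. It held 1818 expected counts of Fcgr3 and 1.01 of Fcgr2b, so Fcgr2b made up 0.0555% of both genes' counts (exact 95% interval 0.00139 to 0.306%). Such intervals cover counting error only, since reads without molecular identifiers are not independent molecules and libraries vary beyond it. The share was 34.5% in AIH 3, 43.8% in Control 1, 48.1% in Control 2 and 18.6% in Control 3. AIH 1 had 3 counts of both genes, too few for a share, with an interval of 0.840 to 90.6%. Fcgr2b and Fcgr3 have near-identical stretches, so their counts are uncertain where reads were divided between them: 12.8% of the 50-base windows of the Fcgr3 transcript, and 3.53% of its 100-base windows, occur unchanged in Fcgr2b transcripts of the GENCODE annotation. No 50-base window of Fcgr1 or Fcgr4 was shared with another of the receptor genes. Only the more abundant Fcgr3 transcript was searched, and windows that differ in any base counted as not shared. Most of the windows searched in Fcgr3 and Fcgr2b were thus not identical between the genes.

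**Figure D2:**
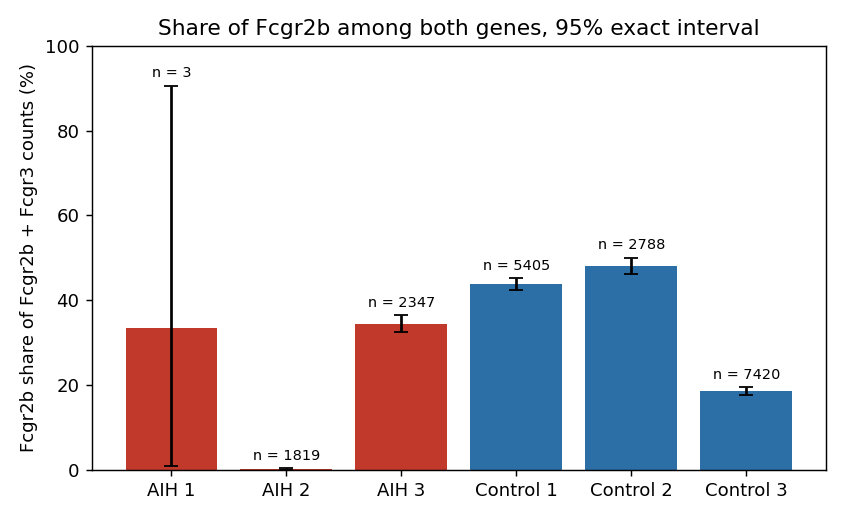
Fcgr2b as a percentage of the summed expected counts of Fcgr2b and Fcgr3 in each library, with exact 95% binomial intervals and the summed count as n. The share is 0.0555% in AIH 2 and between 18.6 and 48.1% in AIH 3 and the controls, while the interval of AIH 1 with n = 3 spans most of the axis.

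Of the 37757 transcripts deposited, 8 belonged to the 6 genes, 2 each for Fcgr2b and Fcgr3 and 1 for each of the others. The short form of Fcgr2b (293 residues from 7 coding exons in the matching GENCODE transcript) took all of the gene's counts in the AIH libraries and in Control 3, 94.4% in Control 1 and 98.7% in Control 2. The long form (340 residues from 8 coding exons) had 133 expected counts in Control 1, 17.3 in Control 2 and 0 in each other library. In mouse the long form, with an insert in its cytoplasmic tail, is known as the form of B cells, and the short form as that of macrophages. Most of its counts were thus in Control 1, and Control 3 had as few as the AIH libraries. It was too low for the filter and was not tested. For Fcgr3 the less abundant transcript took 11.4% and 5.86% of counts in AIH 2 and AIH 3, against 21.6, 17.0 and 41.9% in the controls. It also took both of the Fcgr3 counts in AIH 1. None of the 7 member transcripts tested passed in edgeR with Benjamini-Hochberg adjustment over 17999 transcripts (0% called). All 7 had a log2 fold change below 0, against 52.5% of transcripts. At an unadjusted p under 0.05, 2 were lower, those of Tyrobp and Fcgr4, against 2.01% of transcripts, and 0 were higher, against 2.14%. The Wald test of DESeq2 called 0 of them, where it called 1.11% of transcripts and 0.527% as lower.

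C1qb (12260), a chain of the complement protein C1q made by macrophages, was at 103, 546 and 535 CPM in the AIH libraries, and at 1165, 846 and 3362 CPM in the controls. It was lower in every AIH library than in every control, with a log2 fold change of −2.18 (SE 0.67) and an adjusted p of 0.449 in edgeR. Read beside C1qb in the same library, no gene of the 6 separated the groups. Fcer1g was 81.3, 60.9 and 91.8% of the C1qb level in the AIH libraries and 71.8, 44.8 and 55.0% in the controls. Tyrobp was 205, 68.1 and 92.6% of C1qb in AIH, and 80.6, 98.4 and 57.9% in control. The mean log2 ratio to C1qb was higher in AIH by 0.45 for Fcer1g and by 0.50 for Tyrobp. The Tyrobp difference rested on AIH 1, being 0.04 without AIH 1 and −0.17 without AIH 1 and Control 3. The size depended on the reference. Against the mean of the macrophage markers the difference was 1.07 for Fcer1g and 1.11 for Tyrobp. The exact two-sided permutation p was then 0.1, the smallest possible, for Fcer1g and 0.2 for Tyrobp.

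The receptors had lower mean ratios to C1qb in AIH. Fcgr4 was 6.44, 6.04 and 14.3% of C1qb in the AIH libraries and 26.4, 9.49 and 15.9% in the controls, a difference in log2 ratio of −0.94 (means −3.60 ± 0.69 and −2.66 ± 0.74, SD, n = 3 per group). Fcgr3 was 15.1% and 14.01% of C1qb in AIH 2 and AIH 3, above the 10.5, 8.84 and 6.87% of the controls, and 0.104% in AIH 1. Its difference was −1.32 with AIH 1 and 0.76 without it. Fcgr1 was 0.0519, 2.21 and 7.46% of C1qb in AIH and 5.50, 0.928 and 6.30% in control, a difference of −1.27 that turned to 0.35 without AIH 1. Fcgr2b was 0.0519, 0.00831 and 7.37% of C1qb in AIH and 8.19, 8.19 and 1.57% in control, a difference of −4.00. With 1 count in each of AIH 1 and AIH 2 its size depended on the libraries and the scale, from −6.32 without AIH 3 to −2.21 without AIH 2 and −1.69 with TPM plus 1. The exact two-sided permutation p over 6 libraries was 0.7 for Fcgr1, 0.2 for Fcgr2b, 1.0 for Fcgr3, 0.2 for Fcgr4, 0.2 for Fcer1g and 0.5 for Tyrobp, in 6 comparisons and with 0.1 the smallest p that 20 splits allow. In AIH 1, where C1qb had 1926 counts, 3 of the 24 macrophage markers, Cd14, Cd163 and Folr2, were at 0, and Vsig4 was at 0.0533 CPM. Others were present in AIH 1, among them Mpeg1 at 85.5, C1qa at 37.4 and Aif1 at 36.5 CPM.

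**Figure D3:**
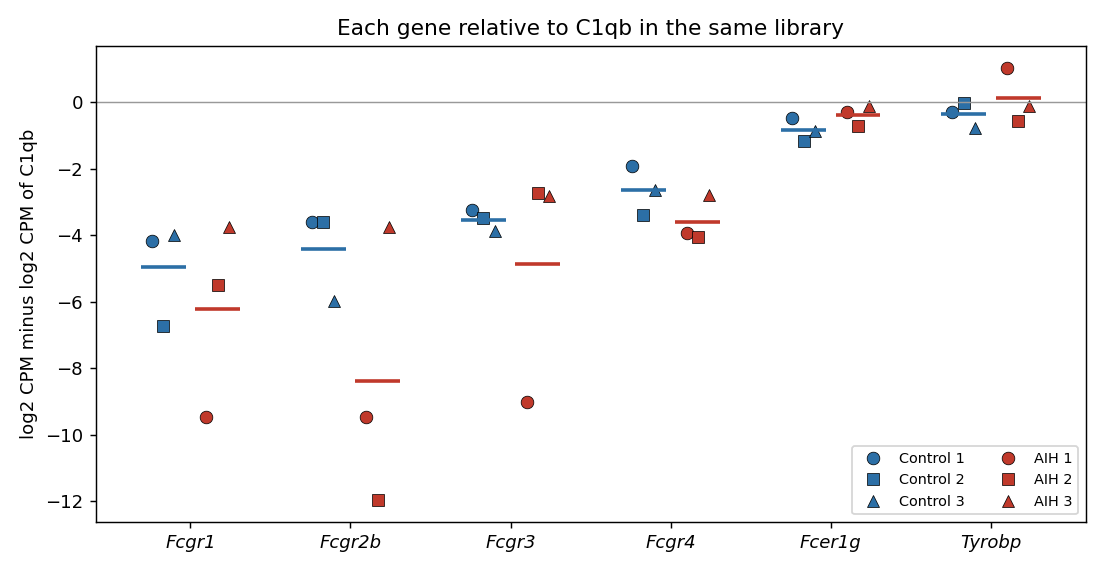
Log2 CPM of each gene minus log2 CPM of C1qb in the same library, with symbols for libraries and short lines for group means; 0 marks the level of C1qb. The adaptors lie near 0 in both groups, Fcgr1 and Fcgr3 are far below the rest in AIH 1, Fcgr2b in AIH 1 and AIH 2, and the groups overlap for all 6 genes.

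With log2 CPM of C1qb as a covariate in the fit across all genes, the log2 fold changes were 2.63 for Fcgr1, −0.29 for Fcgr2b, 1.99 for Fcgr3, −0.51 for Fcgr4, 0.41 for Fcer1g and −0.61 for Tyrobp, and edgeR called 0 genes. With the mean of the macrophage markers as the covariate Fcgr1, Fcgr3 and Fcer1g were likewise above 0 and the other 3 below. C1qb was lower in every AIH library, so a covariate can take up part of any group difference.

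**Figure D4:**
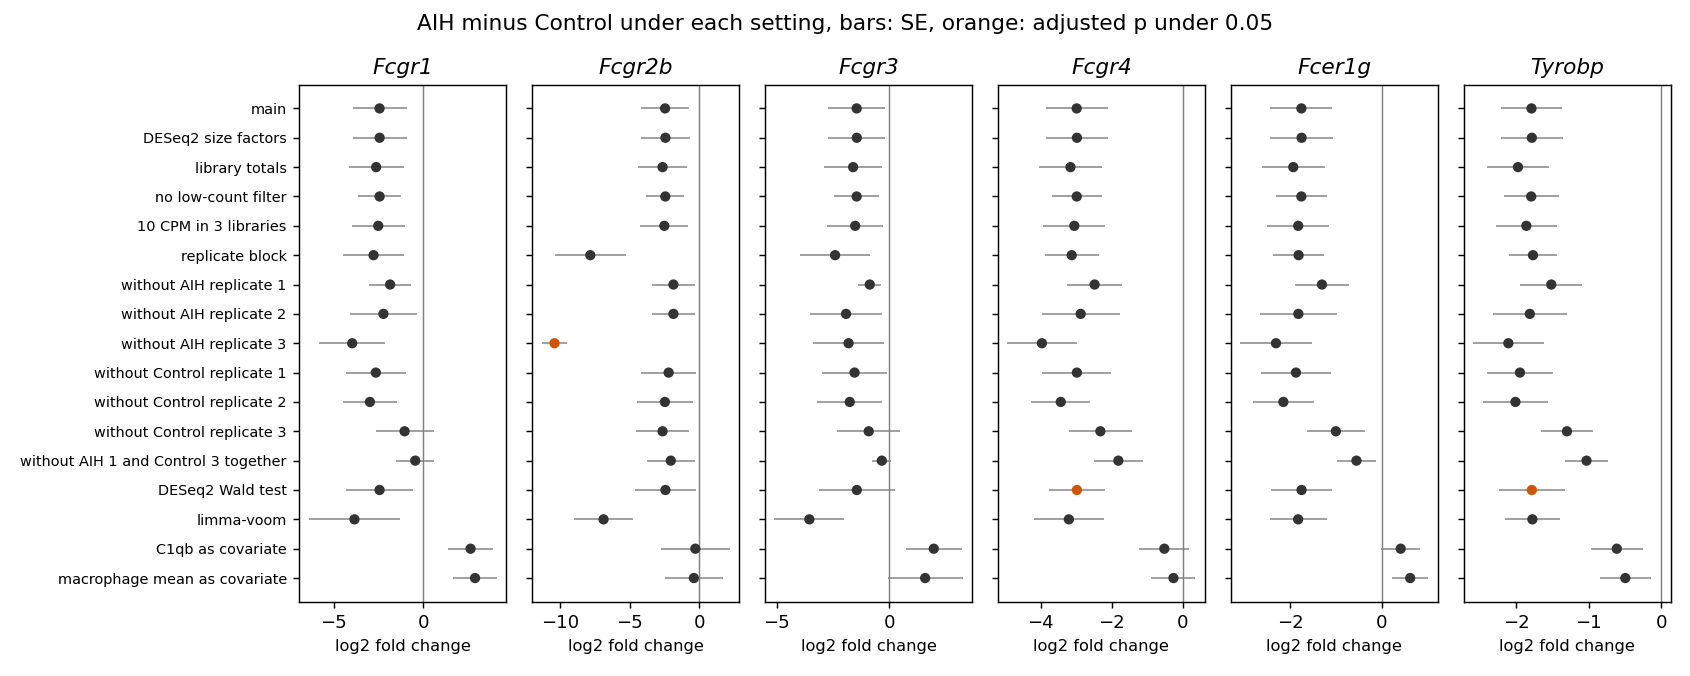
Log2 fold change of each gene, AIH minus control, with its SE under the main test and 16 other settings, 1 panel per gene with its own axis; orange points have an adjusted p under 0.05. Orange points are Fcgr2b without AIH 3 and Fcgr4 and Tyrobp by DESeq2, and points above 0 occur with the C1qb or macrophage covariate for Fcgr1, Fcgr3 and Fcer1g.

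Compared per length, the order of the genes was nearly the same in every library. Tyrobp had the highest TPM of the 6 in all 6 libraries, at 760 ± 325 TPM in AIH and 3085 ± 1712 TPM in control (SD, n = 3 per group), and Fcer1g was next at 532 ± 361 and 2097 ± 1656 TPM. Tyrobp ranked between 23 and 91 among all genes by TPM in the controls and between 171 and 347 in AIH. The receptors were far lower, with Fcgr4 at 29.8 ± 26.2 and 277 ± 218 TPM and Fcgr3 at 38.3 ± 33.8 and 118 ± 72.9 TPM. Fcgr2b had 8.53 ± 14.7 and 55.0 ± 12.5 TPM, and Fcgr1 5.89 ± 6.66 and 38.3 ± 44.6 TPM. Within each group, neighbours in the order of mean TPM differed by less than the larger of their SDs, except at the step from Fcer1g to the highest receptor. Fcgr4 was the highest receptor in every library but AIH 2, where Fcgr3 stood at 64.1 and Fcgr4 at 28.1 TPM.

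The genes closest to each of the 6 in their pattern over the 6 libraries were found as the smallest root-mean-square difference of centred log2 CPM among 7710 genes with a mean of at least 10 CPM, as a description with no test. Tyrobp was closest to Ly86 (0.16), which encodes the MD-1 protein of B cells and macrophages, then to Cd300c2 (0.20) and Tmem176b (0.21). Cd300c2 encodes an activating receptor that pairs with the FcR gamma chain. Fcer1g was closest to Ifitm3 (0.22), an interferon-induced membrane protein gene, and to the lysosomal protease gene Lgmn (0.23), with C1qb in place 5 (0.35). Fcgr4 was closest to Tifa (0.36), Lpl (0.38) and the lysozyme gene Lyz1 (0.42), with C1qb in place 20. C1qb was in place 211 for Tyrobp, 257 for Fcgr1, 282 for Fcgr2b and 311 for Fcgr3. Fcgr3 was closest to Pirb (0.43), an inhibitory receptor gene of myeloid and B cells, and Fcgr1 to Abcc3 (0.48). Fcgr2b was closest to the B cell gene Ms4a1 (0.61), which encodes CD20 and stood at 0.0533, 0 and 43.0 CPM in the AIH libraries, and at 35.4, 57.3 and 20.9 CPM in the controls. Frat2 (0.95) and Sirpb1a (0.99), a receptor gene that pairs with Tyrobp, came next. Like Fcgr2b, each of these genes was at or near 0 in AIH 1 and AIH 2, so the match rests largely on those libraries.

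Genes that work with the 6 were read from lists, and the genes named from each are mostly those with the smallest p. Over all genes tested 51.9% were lower, 3.85% were lower and 4.42% higher at an unadjusted p under 0.05, 8.87% had every AIH library below and 8.46% above every control, and 0.0898% were called; the counts for the lists stand against these shares. Of 13 other Fc receptor genes found, 8 could be tested, with 6 lower and 2 higher, and none passed in edgeR. Fcgrt, which encodes the neonatal receptor that recycles immunoglobulin G, was at 6.32 ± 3.48 CPM in AIH and 38.4 ± 34.4 CPM in control (SD, n = 3 per group). Trim21, a cytosolic antibody receptor gene, was at 7.52 ± 5.53 and 31.8 ± 15.3 CPM. In both, every AIH library lay below every control. The high-affinity receptor for immunoglobulin E, which also uses the FcR gamma chain, was found mostly in 1 library. Its alpha chain gene Fcer1a was at 35.2 CPM in AIH 1 and at 0 elsewhere, and its beta chain gene Ms4a2 was at 22.9 CPM in AIH 1 and at 1.60 CPM or less elsewhere. The mast cell and basophil markers summed to 87.4 CPM in AIH 1 and to 5.73 CPM or less elsewhere.

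Of 7 tested receptor genes that pair with Fcer1g, 5 were lower and none passed. Clec4n, which encodes the fungal receptor Dectin-2, was at 21.1 ± 4.32 CPM in AIH and 105 ± 61.6 CPM in control (SD, n = 3 per group), Cd300c2 at 33.5 ± 8.84 and 140 ± 75.2 CPM and Pira2, an activating immunoglobulin-like receptor gene with close paralogs, at 1.52 ± 1.34 and 23.4 ± 26.1 CPM. The groups did not overlap for these 3. Of 13 tested receptor genes that pair with Tyrobp, 9 were lower, 4 higher and none passed. Sirpb1a, with close paralogs, was at 1.88 ± 3.26 and 25.6 ± 18.9 CPM, and Cd300lb at 0.244 ± 0.422 and 7.24 ± 8.23 CPM. Cd200r4 went the other way, at 81.4 ± 63.4 and 23.1 ± 14.9 CPM, and so did its inhibitory relative Cd200r1 at 367 ± 176 and 58.8 ± 49.0 CPM; both were higher in every AIH library than in every control.

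The other signalling adaptors included T cell and B cell genes. Cd3d and Cd3g, ITAM chains of the T cell receptor complex, were higher in every AIH library than in every control, at 2155 ± 69.8 CPM in AIH and 1237 ± 233 in control for Cd3d and 3120 ± 113 and 1304 ± 446 for Cd3g (SD, n = 3 per group). Cd247, the zeta chain, was at 213 ± 57.6 against 146 ± 30.1 CPM, and Hcst, which encodes the adaptor DAP10 and neighbours Tyrobp in the genome, at 440 ± 163 against 305 ± 108 CPM; the groups overlapped for both. Cd79b, an ITAM chain of the B cell receptor, was lower in every AIH library at 43.7 ± 6.09 against 110.5 ± 5.33 CPM. None of these 8 adaptor genes passed in edgeR.

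Downstream, 18 of 27 tested ITAM signal transducers were lower, 3 of them at an unadjusted p under 0.05 (0 were higher at that p), and none passed in edgeR. The share lower over all genes was 51.9%. The median log2 fold change was −0.58. Syk, the kinase that binds phosphorylated ITAMs outside T cells, was at 7.69 ± 2.04 CPM in AIH and 23.3 ± 13.6 CPM in control (SD, n = 3 per group), whereas its T cell counterpart Zap70 was at 78.5 ± 8.18 and 63.8 ± 23.5 CPM. Pik3ap1, an adaptor gene for PI3 kinase, was at 33.6 ± 15.4 and 88.9 ± 48.3 CPM, Blnk, the linker of B cells and macrophages, at 3.29 ± 2.39 and 24.1 ± 22.9 CPM, and Vav1 at 29.7 ± 14.9 and 72.9 ± 35.7 CPM. The groups did not overlap for these 3. The Syk and Zap70 groups overlapped.

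Of 26 tested inhibitory receptors and inhibitors of ITAM signals, 20 were lower with a median log2 fold change of −1.25, 8 of them at an unadjusted p under 0.05, and none passed in edgeR. At that p 3 others were higher, Cd200r1, Lilrb4a and Sla2. Siglecg, an inhibitory receptor gene of B cells, had 1 count over all AIH libraries, in AIH 3, against 490, 235 and 112 in the controls, a control to AIH ratio of 729.6 in CPM (exact 95% interval for counting, 131 to 28854). Lair1, a collagen receptor gene, was at 37.9 ± 13.3 and 112 ± 23.1 CPM (SD, n = 3 per group). Inpp5d, which encodes the phosphatase SHIP1 that Fcgr2b recruits, was at 34.6 ± 12.8 and 51.7 ± 5.28 CPM. Of 15 phagocytosis and oxidase genes 10 were lower and none passed; Cybb, the catalytic chain of the phagocyte oxidase, was at 115 ± 44.5 and 279 ± 155 CPM, below every control in every AIH library, while Itgb2 had a log2 fold change of −0.03.

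**Figure D5:**
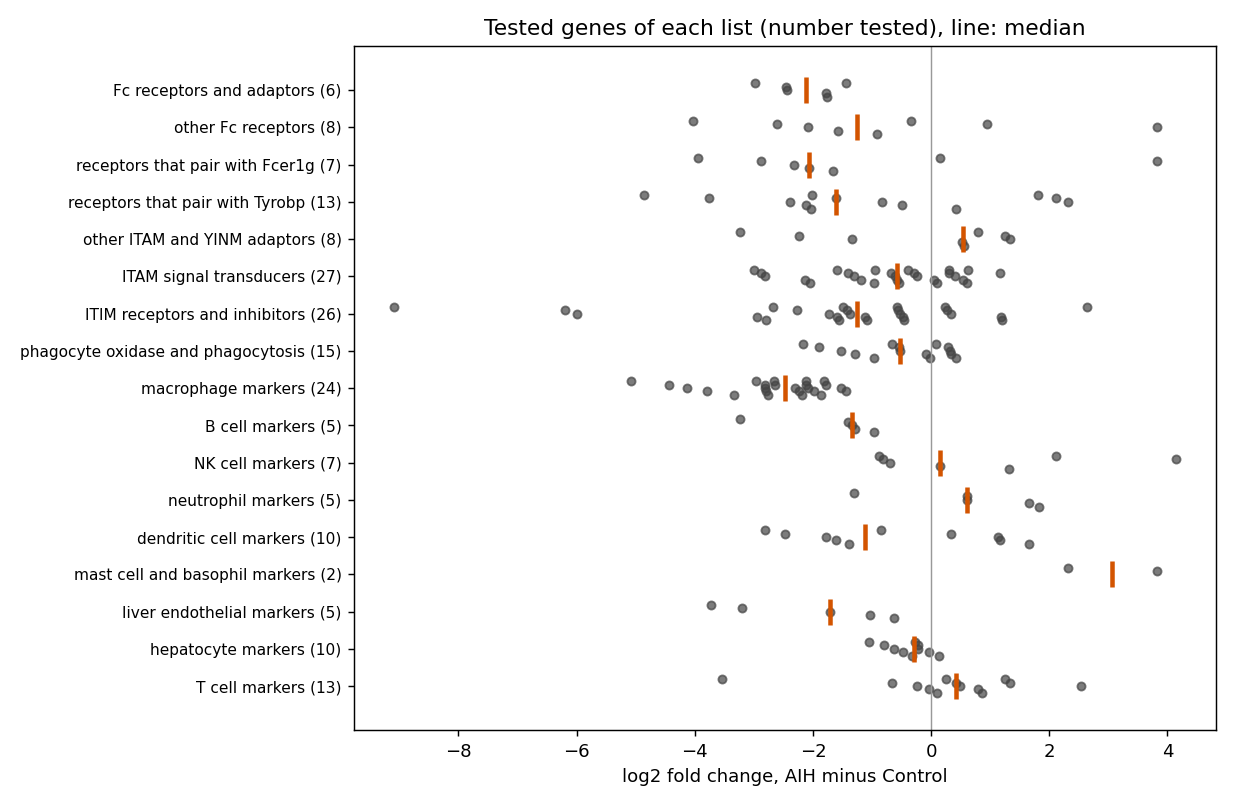
Log2 fold change, AIH minus control, of each tested gene in the 6-gene set, the lists of pathway genes and the marker lists, 1 point per gene with an orange line at the median; numbers in brackets are genes tested. All 24 macrophage markers lie below 0 with a median of −2.48, next to a median of −2.12 for the 6 genes, and the T cell markers have a median of 0.43.

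Markers of other cells that can carry these genes differed in direction between cell types, and their part in the results was not tested. All 24 macrophage markers had a log2 fold change below 0, with a median of −2.48. B cell markers summed to 49.7 to 139 CPM in AIH and 204 to 415 CPM in control, with 4, 5 and 4 of 10 markers at 0 in the AIH libraries and 3, 1 and 3 in the controls. In AIH 1 and AIH 2, the libraries with 1 count of Fcgr2b each, Ms4a1 was at or near 0, but Cd79b was at 49.4 and 37.3 CPM, beside 44.3 CPM in AIH 3. Cd79a was at 21.6, 0.0454 and 11.1 CPM in the AIH libraries and at 103, 185 and 19.1 CPM in the controls. Liver endothelial markers summed to 6.29 to 37.3 CPM in AIH and 74.7 to 226 CPM in control. Most of that sum was Pecam1 and Cdh5. Pecam1 was at 14.5 ± 9.07 CPM in AIH and 47.2 ± 4.39 CPM in control (SD, n = 3 per group). Cdh5 was at 1.87, 12.5 and 4.92 CPM in the AIH libraries and at 20.1, 17.9 and 139 CPM in the controls. The groups did not overlap for either gene, and AIH 1 held 75 counts of Pecam1 and 35 of Cdh5. Lyve1 and Clec4g were at 1.29 CPM or less in every control. Stab2, Lyve1 and Clec4g were at 0 in AIH 1. Lyve1 was also at 0 in AIH 3, Control 1 and Control 3, Clec4g in AIH 3 and Stab2 in Control 1. Natural killer cell markers, whose cells carry Tyrobp, Fcer1g and Fcgr3, summed to 649 to 1647 CPM in AIH and 359 to 748 CPM in control, with 3 of 7 tested lower and 4 higher. Much of that sum was Gzma, which T cells also express, at 593 to 1175 CPM in AIH and 201 to 609 CPM in control. Klrd1 was at 351, 7.03 and 168 CPM in the AIH libraries and at 37.5, 83.4 and 0.115 CPM in the controls. Klre1 was at 155, 10.1 and 46.1 CPM in AIH and at 1.13, 10.8 and 0 CPM in control. The groups overlapped for Gzma, Klrd1 and Klre1. Ncr1 and Klrb1c were at 28.9 and 43.8 CPM in AIH 1 and at 0 in AIH 2 and AIH 3, against 8.99 and 43.1 CPM in Control 1, 17.1 and 27.9 CPM in Control 2 and 0 and 0.0765 CPM in Control 3. Neutrophil markers summed to 34.3 CPM or less in every library, with 1 of 5 tested lower and 4 higher. Dendritic cell markers summed to 23.2 to 162 CPM in AIH and 135 to 341 CPM in control, with 6 of 10 tested lower and 4 higher. Among them Siglech was at 30.9, 81.0 and 1.61 CPM in the AIH libraries and at 132, 168 and 48.1 CPM in the controls, with overlapping groups.

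Promoter sequence was available in RefSeq (GRCm38.p6) for 5 of the 6 genes. Fcgr2b, Fcgr4, Fcgr3 and Fcer1g lie on chromosome 1, the first 3 next to one another among protein-coding genes, while Fcgr1 lies on chromosome 3 and Tyrobp on chromosome 7. The 250 bases before each start were searched on both strands for GAGGAA, a core that the myeloid and B cell factor PU.1 can bind. GAGGAA occurred in 3 of the 5, Fcgr1, Fcgr3 and Fcgr4, and not in Fcgr2b or Fcer1g. It also occurred in C1qb, and in 23.1% of 27025 promoters. A match is a description of the letters and not a shown binding site. The windows of Fcgr1 and Fcgr4, an activating pair with matches, and of Fcgr2b, the inhibitory gene, without a match, are shown. Matches are in capitals, 5′ to 3′ on the strand of the gene (GRCm38.p6 chr3:96293970-96294219, minus strand, chr1:171018676-171018925, plus strand, and chr1:170976072-170976321, minus strand).
Fcgr1: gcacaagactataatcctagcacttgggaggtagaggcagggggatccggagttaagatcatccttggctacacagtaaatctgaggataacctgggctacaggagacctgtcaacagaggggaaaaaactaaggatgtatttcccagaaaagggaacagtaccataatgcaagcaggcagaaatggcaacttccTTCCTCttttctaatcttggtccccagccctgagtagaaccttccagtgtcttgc
Fcgr4: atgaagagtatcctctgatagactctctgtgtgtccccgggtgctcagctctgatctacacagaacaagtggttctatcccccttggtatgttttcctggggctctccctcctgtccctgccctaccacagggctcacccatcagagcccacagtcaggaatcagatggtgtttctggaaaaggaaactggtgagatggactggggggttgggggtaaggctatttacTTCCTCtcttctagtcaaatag
Fcgr2b: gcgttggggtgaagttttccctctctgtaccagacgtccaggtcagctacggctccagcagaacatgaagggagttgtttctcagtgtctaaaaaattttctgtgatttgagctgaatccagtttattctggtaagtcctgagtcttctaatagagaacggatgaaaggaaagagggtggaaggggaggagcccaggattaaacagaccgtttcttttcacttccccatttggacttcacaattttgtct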

How the data were processed

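Expected counts per gene and transcript were deposited by the authors without normalization; 14.8 to 16.7% per library were not whole, so reads had been shared. The authors also deposited TPM, used for levels between genes, and a normalized signal (a read count scaled by 1 factor per library), used as an alternative. Per the submitters' processing notes the tools included FastQC, STAR and featureCounts and the builds were GRCm39 and mm39; which program shared the reads is not given in the sources used here. After rounding, the test was that of edgeR 4.0.16 under R 4.3.3 (TMM, filterByExpr with minimum count 10 and total 15, quasi-likelihood fit with group alone, Benjamini-Hochberg, threshold 0.05). It was also run on simulated data, and that outcome is not reported here. Alternatives used DESeq2 1.42.0 and limma 3.58.1. The SE divides the size of the log2 fold change by the root of its F statistic and is approximate. Ratios to C1qb used log2 CPM with a prior count of 2. The 6 genes, lists and tests were chosen with earlier results of these data known. Genes were named by a rule: the 6, C1qb, up to 3 per list with the smallest p, and up to 3 closest in pattern. Not every gene that met the rule is named. Foxp3, Ikzf2, Ctla4, Il2ra, Cd4, Syk, Zap70, Cd247, Hcst, Inpp5d and Itgb2 were chosen after their values were seen. So were Fcer1a, Ms4a2, Lilrb4a, Sla2, Ncr1, Klrb1c and the single markers at or near 0. Some planned results are not reported here.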

Additional observations from a re-analysis of the deposited data

How the results depend on the processing

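The 6 genes were lower in AIH under each setting except the covariates. Of 96 alternative log2 fold changes of the 6 genes, 6 reversed, and the cause was not tested: with C1qb as a covariate Fcgr1 was 2.63, Fcgr3 1.99 and Fcer1g 0.41, and with the macrophage mean 2.88, 1.60 and 0.62. Of the 6 genes 2 were called by DESeq2 and between 0 and 1 with any 1 library left out (Fcgr2b without AIH 3, the AIH library with 809 of its counts). The 10 genes called among all genes became 3 with library totals, 32 without a low-count filter, 0 with the replicate block, 0 to 1 with any 1 library left out, 1 without AIH 1 and Control 3, 337 by DESeq2, 21 by limma-voom, and 0 with the C1qb or the macrophage covariate. Beside C1qb, 6 of 78 alternatives reversed: Fcgr1 was 0.22 with TPM plus 1, between −2.51 and 0.35 with any 1 library left out and 0.84 without AIH 1 and Control 3; Fcgr3 was between −2.39 and 0.76 and 0.59; Tyrobp was −0.17 without both libraries. Deviations of same-numbered libraries correlated over genes with r of 0.01, 0.00134 and 0.19, the last the highest of the 9 pairings; not every pair exceeded 0.1, so the libraries were taken to share only a number; with the replicate block Fcgr2b stood at −7.82 (SE 2.56) and 0 of the 6 genes were called. Fcgr1, Fcgr2b and Fcgr3 had 1 to 2 counts in AIH 1, and Fcgr2b had 1.01 in AIH 2, so the size of their fold changes is uncertain. AIH 1 held 20916065 expected counts in all, more than the 17780509 of Control 2.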
